A study of Homo sapiens with 10 samples.

Results

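The genes described here are the drug targets of olaparib and their partners in the repair of single-strand DNA breaks. They are 10 of the 19893 genes in the deposited count matrix, taken by name: PARP1, PARP2, PARP3, PARG, HPF1, XRCC1, LIG3, POLB, CHD1L and APEX1. All 10 had UMIs (unique molecular identifiers, which tag each captured transcript once) in every sample sum and passed the filter on low counts. Kuramochi, a BRCA2-mutant human cell line labelled as epithelial and known as a model of high-grade serous ovarian cancer, was studied by single-cell RNA-seq in droplets, reading transcript 3′ ends. The 5 conditions were drug-naive control, persister cells that survived 9 days in 10 µM or 320 µM olaparib, and populations adapted to (resistant to) 10 µM or 320 µM. Cells of all 5 conditions were hashed and mixed in each of 2 pools. All groups are the same line, and the BRCA2-mutant genotype is that of the line. Whether it was unchanged in the persister and adapted populations was not tested. How the adapted populations were derived, whether as clones or as mixtures, is not given in the sources used here.

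PARP1 and PARP2 bind broken DNA and, with HPF1 completing their active site, attach chains of ADP-ribose taken from NAD to serines of themselves and of nearby chromatin proteins. The chains recruit XRCC1, the scaffold that brings DNA ligase III (LIG3) and DNA polymerase beta (POLB), and CHD1L, a chromatin remodeler with a domain that reads ADP-ribose. PARG digests the chains, and APEX1 cuts the DNA backbone at abasic sites and so makes the breaks of base excision repair. Olaparib blocks the active sites of PARP1 and PARP2 and holds them on DNA. Loss of PARG and lower PARP1 levels are known routes of resistance to such inhibitors, and cells with a defective BRCA2 gene depend on single-strand break repair.

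The sequences just upstream of 4 transcription starts are shown, because these genes moved in different directions: PARP1 and CHD1L were lower in all 4 treated conditions, PARP3 was higher in 3 of them, and HPF1 was lowest in 10 µM persister and highest in 320 µM adapted cells. They are RefSeq sequences on GRCh38.p14, written from far to near the start and ending before the first GENCODE 29 exon base of the gene. Capitals mark the GC box GGGCGG, the ETS letters CCGGAAG and the CCAAT box CCAAT, searched on both strands.
PARP1, GRCh38.p14 chr1:226408094-226408343, minus strand: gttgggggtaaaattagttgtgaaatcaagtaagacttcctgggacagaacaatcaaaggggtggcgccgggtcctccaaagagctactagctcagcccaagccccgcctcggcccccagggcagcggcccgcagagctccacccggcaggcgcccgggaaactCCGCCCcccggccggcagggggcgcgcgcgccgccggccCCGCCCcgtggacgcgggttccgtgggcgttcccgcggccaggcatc
CHD1L, GRCh38.p14 chr1:147242434-147242640, plus strand: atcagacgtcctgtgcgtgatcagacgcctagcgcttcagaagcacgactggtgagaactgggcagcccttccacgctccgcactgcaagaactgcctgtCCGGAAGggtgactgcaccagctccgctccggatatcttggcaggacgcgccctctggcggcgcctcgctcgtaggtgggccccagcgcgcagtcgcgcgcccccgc
PARP3, GRCh38.p14 chr3:51942113-51942344, plus strand: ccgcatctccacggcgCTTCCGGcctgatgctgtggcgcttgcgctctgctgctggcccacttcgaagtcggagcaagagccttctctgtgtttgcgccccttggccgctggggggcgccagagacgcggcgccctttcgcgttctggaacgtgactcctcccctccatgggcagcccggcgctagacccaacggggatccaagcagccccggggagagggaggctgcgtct
HPF1, GRCh38.p14 chr4:169757954-169758194, minus strand: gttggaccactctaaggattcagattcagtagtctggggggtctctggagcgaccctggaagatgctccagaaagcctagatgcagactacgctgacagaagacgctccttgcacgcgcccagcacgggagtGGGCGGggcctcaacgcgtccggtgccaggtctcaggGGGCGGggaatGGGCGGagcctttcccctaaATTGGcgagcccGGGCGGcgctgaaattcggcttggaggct
RefSeq promoters were matched for 9 of the 10 genes (POLB had no entry). Over the 250 bases before the start, GC boxes stood in 5 of the 9 (PARP1, PARP2, HPF1, XRCC1 and LIG3) against 42.6% of 35116 promoters, with 2 in PARP1 and 4 in HPF1. The ETS letters stood in PARP3 and CHD1L (8.52% of promoters), and CCAAT in PARG, HPF1, XRCC1 and APEX1 (32.0%). All 250 bases of the XRCC1 window lie in GENCODE 29 exons of that gene, and the PARG window lies inside the annotated PARG gene. Their matches are thus upstream of the RefSeq start used and not of the whole annotated gene. The consensus letters searched for E2F (TTTCCCGC, 1.39% of promoters, and TTTGGCGC, 0.550%), for NRF1 (1.03%) and for the interferon-stimulated response element (3.02%) were in none of these 9 windows.

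Adding up the UMIs of a condition's cells pool by pool gave 10 sums, n = 2 per condition, holding 3532281 to 23189583 UMIs. The smallest were the 10 µM persister sums, with 300 and 263 cells. Levels are CPM, the usual count relative to library size, here a size scaled by edgeR's TMM factor (a trimmed mean of log ratios), with pool 1 given first and pool 2 next. Since 3′ ends are counted and capture differs between transcripts, levels are compared between conditions and not between genes. Changes are log2 differences from edgeR with their standard error (SE), and a gene counts as called at a Benjamini-Hochberg adjusted p under 0.05 over all genes tested. In all, 13330 genes were tested. No source used here tells whether the 2 pools hold separate cultures. The error behind every p-value is therefore that between pools and can be technical. Fewer cells that transcribe a gene and less RNA of it per cell cannot be told apart in these sums. The epithelial label was checked on 15 ovarian epithelial markers, all of them with UMIs in control. Their summed level was 5142 and 5282 CPM in control, 3926 and 3254 in 10 µM persister, 2996 and 2983 in 320 µM persister, 2918 and 2865 in 10 µM adapted and 1392 and 1264 in 320 µM adapted cells, where 1 of 15 was at 0. KRT8 and KRT18 made up most of it in every condition (means of 1263 and 2780 CPM in control). Single markers moved in both directions. From control to 10 and 320 µM persister cells, CLDN4 went from a mean of 18.4 CPM to 108 and 145, and SOX17 from 325 to 98.2 and 202. In 320 µM adapted cells every marker but KRT7 had a lower mean than in control. SOX17 was at 5.67 there, CDH6 at 14.2 (507 in control) and WT1 at 0.898 (24.9 in control), while KRT7 went from 2.84 to 6.13. In 10 µM adapted cells SOX17 was at 16.4 and KRT7 at 41.3.

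All 10 genes were called in 10 µM persister cells against control, 9 lower and PARP3 higher. In that comparison 56.6% of all genes were called, 29.3% lower and 27.3% higher. In 320 µM persister cells 6 of 10 were called, all lower (PARP1, PARP2, XRCC1, LIG3, CHD1L and APEX1), where 54.6% of all genes were called, 28.3% lower and 26.3% higher. In 10 µM adapted cells 8 of 10 were called, 7 lower and PARP3 higher (67.1% of all genes, 33.4% lower and 33.7% higher). In 320 µM adapted cells all 10 were called, 6 lower, and 4 higher: PARP3, PARG, HPF1 and POLB (74.5% of all genes, 36.9% lower and 37.6% higher). The median change over the 10 genes was -0.81, -0.30, -0.24 and -0.37 in these 4 comparisons, beside -0.03, -0.01, 0.00 and 0.01 over all genes tested. The 4 comparisons share the same 2 control sums. Scaling by library totals alone moved the median of all genes to -0.22 in 320 µM adapted cells and made 37.4% of its calls higher instead of 50.5%, so the smaller changes there are relative to the scaling.

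**Figure D1:**
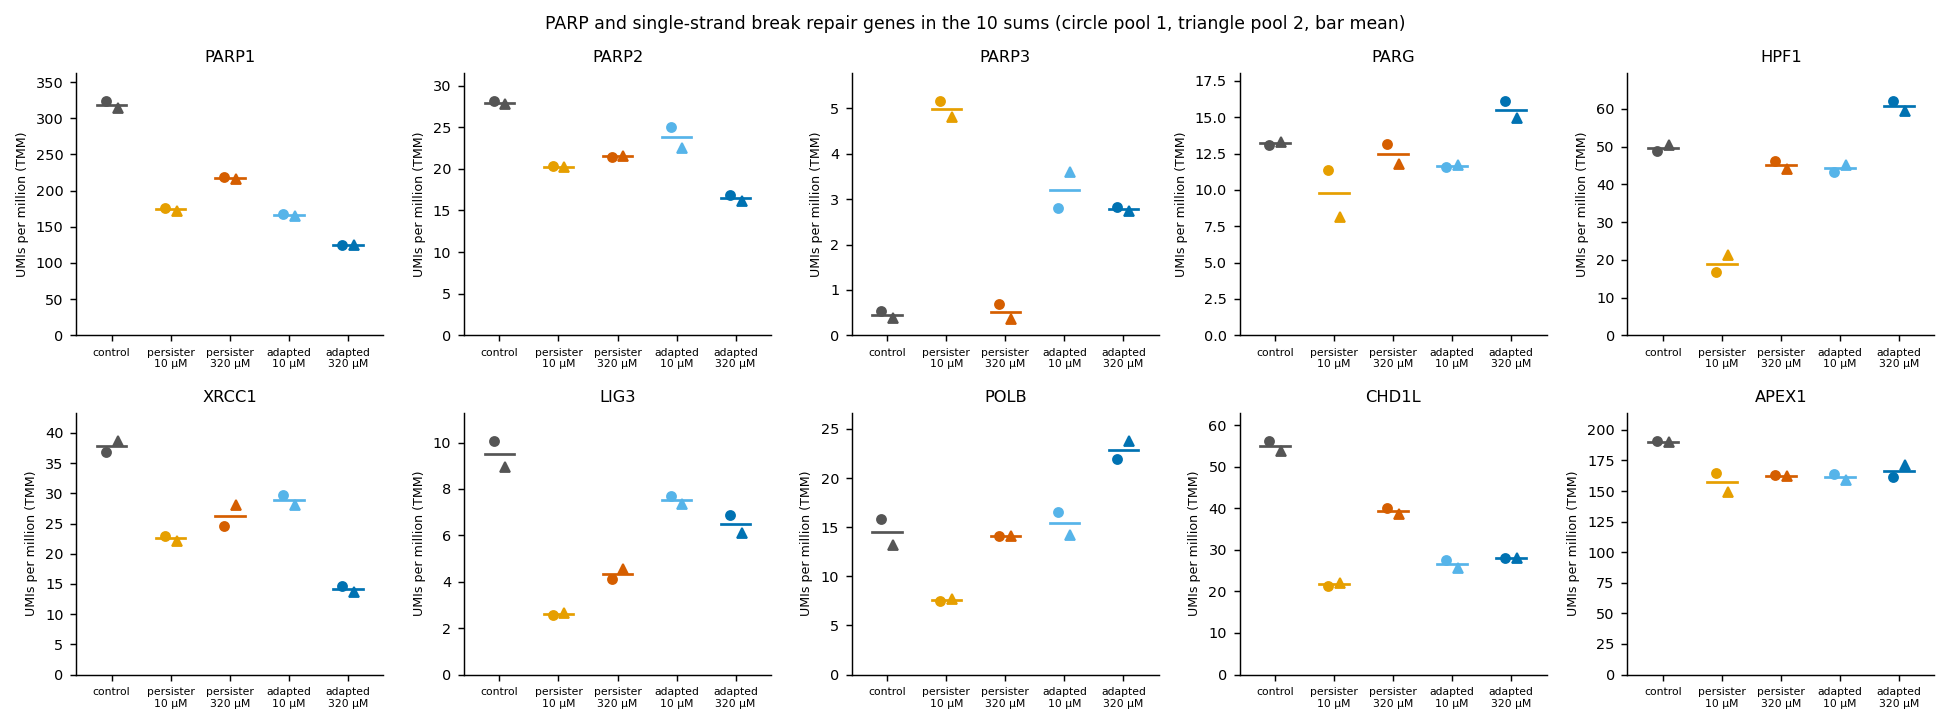
CPM, scaled with TMM factors, of the 10 genes in each of the 10 sums; circles are pool 1, triangles pool 2 and bars the mean of both. PARP1 falls from 323 and 314 in control to 125 and 124 in 320 µM adapted cells, and HPF1 ranges from 16.8 and 21.1 in 10 µM persister to 62.0 and 59.3 in 320 µM adapted cells.

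The sensors of breaks did not move together. PARP1 stood at 323 and 314 CPM in control, 176 and 172 in 10 µM persister, 218 and 216 in 320 µM persister, 167 and 164 in 10 µM adapted and 125 and 124 in 320 µM adapted cells. Every treated sum lay below both control sums, and the order of the conditions was the same in both pools, with 10 µM persister and 10 µM adapted cells next to each other. Against control PARP1 fell by 0.87 (SE 0.05) in 10 µM persister, 0.56 (SE 0.04) in 320 µM persister, 0.94 (SE 0.04) in 10 µM adapted and 1.36 (SE 0.04) in 320 µM adapted cells, with adjusted p = 1.10e-11 or lower. The 2 conditions next to each other differed by -0.07 (SE 0.05, adjusted p = 0.223), while 320 µM was higher than 10 µM among persister cells (0.32, SE 0.05, adjusted p = 6.02e-06) and lower than 10 µM among adapted cells (-0.41, SE 0.05, adjusted p = 5.74e-09).

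PARP2, the second target, gave 28.1 and 27.8 CPM in control, 20.4 and 20.2 in 10 µM persister, 21.4 and 21.5 in 320 µM persister, 25.01 and 22.6 in 10 µM adapted and 16.9 and 16.1 in 320 µM adapted cells. The groups did not overlap with control in any treated condition. Its change was -0.46 (SE 0.11, adjusted p = 0.000831) in 10 µM persister, -0.38 (SE 0.09, adjusted p = 0.000699) in 320 µM persister, -0.76 (SE 0.08, adjusted p = 1.87e-09) in 320 µM adapted and -0.23 (SE 0.08, adjusted p = 0.0107) in 10 µM adapted cells. The last of these was not called without control pool 1 (-0.23, adjusted p = 0.0575) or without 10 µM adapted pool 2 (-0.16, adjusted p = 0.174). Counted within a sum, which needs no scaling, there were 8.70 and 8.84 PARP2 UMIs per 100 PARP1 UMIs in control and 13.5 and 13.0 in 320 µM adapted cells.

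PARP3, which adds single ADP-ribose units and acts with end joining, was close to undetected in control, with 12 and 9 UMIs. It had 20 and 20 UMIs in the small 10 µM persister sums, 6 and 3 in 320 µM persister, 43 and 56 in 10 µM adapted and 45 and 47 in 320 µM adapted cells. As levels these were 0.531 and 0.382 CPM in control, 5.16 and 4.81 in 10 µM persister, 0.688 and 0.349 in 320 µM persister, 2.81 and 3.61 in 10 µM adapted and 2.82 and 2.73 in 320 µM adapted cells. The 10 µM persister and both adapted groups lay above all control sums, and the 320 µM persister sums overlapped control. The rise was 3.43 (SE 0.38, adjusted p = 5.98e-09), 2.80 (SE 0.30, adjusted p = 3.11e-09) and 2.58 (SE 0.31, adjusted p = 1.41e-08) in these 3 conditions, and the value in 320 µM persister cells was 0.19 (SE 0.56, adjusted p = 0.801). The counts are few, so the size of each rise is known only within its SE.

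**Figure D2:**
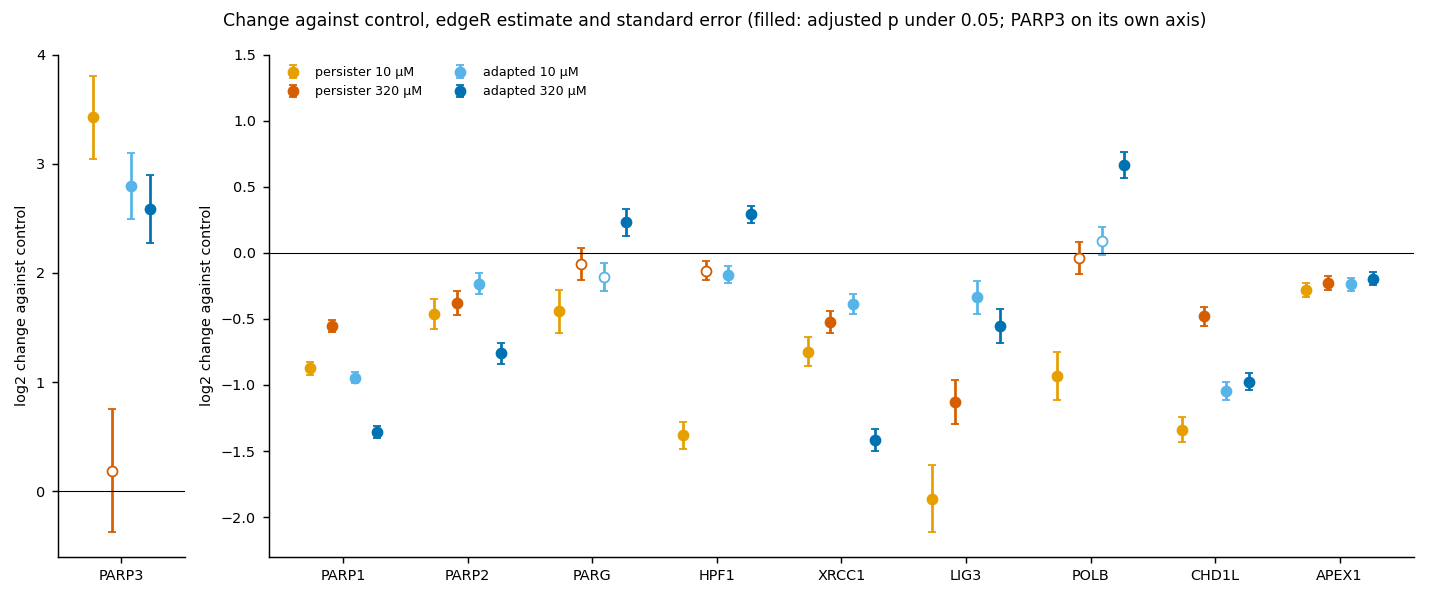
Log2 change against control of each gene in the 4 treated conditions, as the edgeR estimate with its standard error; filled points have an adjusted p under 0.05, and PARP3 has an axis of its own. LIG3 reaches -1.86 in 10 µM persister cells, and PARG, HPF1 and POLB are called above 0 in 320 µM adapted cells (0.23, 0.29 and 0.66) and in no other condition.

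HPF1, the partner that PARP1 and PARP2 need to modify serines, was low in 10 µM persister and high in 320 µM adapted cells. Its levels were 48.7 and 50.4 CPM in control, 16.8 and 21.1 in 10 µM persister, 46.3 and 44.0 in 320 µM persister, 43.2 and 45.2 in 10 µM adapted and 62.0 and 59.3 in 320 µM adapted cells. The 10 µM persister sums were the lowest of all and the 320 µM adapted sums the highest. HPF1 fell by 1.38 (SE 0.10, adjusted p = 1.46e-12) in 10 µM persister cells and rose by 0.29 (SE 0.06, adjusted p = 0.000184) in 320 µM adapted cells. Under library totals alone the latter was 0.06 (adjusted p = 0.364). Its change of -0.16 (SE 0.07, adjusted p = 0.0310) in 10 µM adapted cells lost its call whichever of the 4 sums was left out (-0.20 to -0.14, adjusted p = 0.0519 to 0.173) and turned to 0.02 (adjusted p = 0.855) in cells thinned to 3000 UMIs.

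PARG, the enzyme that digests ADP-ribose chains, moved little. It gave 13.1 and 13.3 CPM in control, 11.3 and 8.17 in 10 µM persister, 13.2 and 11.8 in 320 µM persister, 11.6 and 11.7 in 10 µM adapted and 16.1 and 14.9 in 320 µM adapted cells, with the 320 µM persister sums overlapping control. The call in 10 µM persister cells (-0.44, SE 0.16, adjusted p = 0.0225) was lost without 10 µM persister pool 2 (-0.23). It was also lost with DESeq2's Wald test (-0.40, adjusted p = 0.126), under library totals (-0.32, adjusted p = 0.0954) and in thinned cells (-0.33, adjusted p = 0.509). The call in 320 µM adapted cells (0.23, SE 0.10, adjusted p = 0.0398) was lost without control pool 1, control pool 2 or 320 µM adapted pool 1 (0.17 to 0.24, adjusted p = 0.0987 to 0.223). It was 0.00 (adjusted p = 0.971) under library totals, 0.24 (adjusted p = 0.199) with DESeq2 and 0.21 (adjusted p = 0.272) in thinned cells. A copy named PARGP1 is annotated and is not among the genes of the matrix. How reads shared with it were treated is not given in the sources used here.

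Set against PARP1 within each sum, HPF1 and PARG both stood above control in the adapted and in the 320 µM persister cells. There were 15.1 and 16.0 HPF1 UMIs per 100 PARP1 UMIs in control, 9.52 and 12.3 in 10 µM persister, 21.2 and 20.4 in 320 µM persister, 25.9 and 27.5 in 10 µM adapted and 49.6 and 47.8 in 320 µM adapted cells. For PARG the counts per 100 PARP1 UMIs were 4.05 and 4.24 in control, 6.44 and 4.74 in 10 µM persister, 6.04 and 5.45 in 320 µM persister, 6.92 and 7.14 in 10 µM adapted and 12.9 and 12.0 in 320 µM adapted cells. The HPF1 ratio in 320 µM adapted cells, 48.7 ± 1.29 (SD, n = 2), was thus about 3 times that of control, 15.6 ± 0.685, and the PARG ratio was likewise 12.5 ± 0.610 against 4.14 ± 0.133. PARP1, the denominator, had itself changed by -1.36 there, so these ratios carry its fall. APEX1 per 100 PARP1 UMIs also went from 59.8 ± 0.851 in control to 134 ± 5.75, although APEX1 itself changed by -0.20. These ratios do not depend on the scaling between sums, were chosen after the levels were seen and have no test, since with 2 sums on each side the smallest p of an exact permutation test (two-sided) is 0.333.

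**Figure D3:**
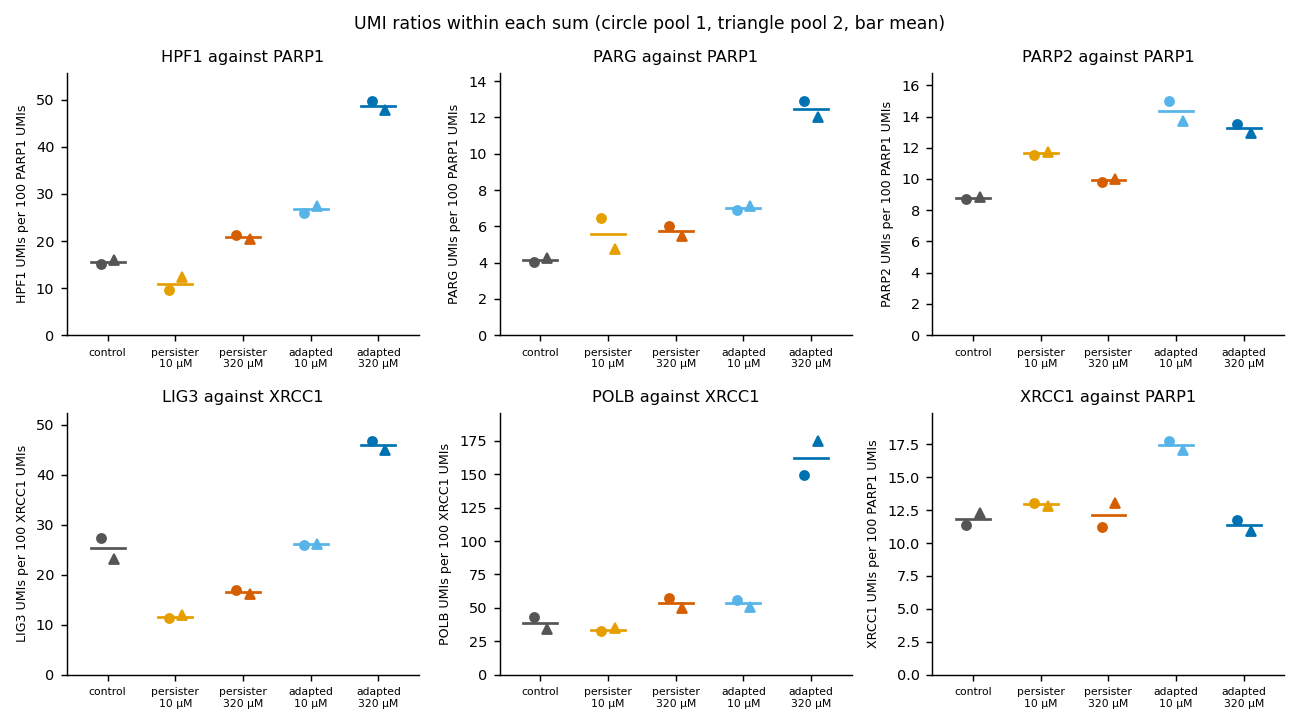
UMIs of one gene per 100 UMIs of another within each sum; circles are pool 1, triangles pool 2 and bars the mean. HPF1 per 100 PARP1 UMIs goes from 15.1 and 16.0 in control to 49.6 and 47.8 in 320 µM adapted cells, and POLB per 100 XRCC1 UMIs from 42.8 and 34.1 to 149 and 175.

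The scaffold XRCC1 fell in all 4 treated conditions. It gave 36.9 and 38.7 CPM in control, 23.0 and 22.1 in 10 µM persister, 24.5 and 28.1 in 320 µM persister, 29.7 and 28.1 in 10 µM adapted and 14.7 and 13.6 in 320 µM adapted cells. All treated sums were below control, and the 320 µM adapted sums were the lowest. The fall was -1.42 (SE 0.08, adjusted p = 2.13e-15) in 320 µM adapted cells and -0.75 (SE 0.11), -0.52 (SE 0.08) and -0.39 (SE 0.08) in cells of the 10 µM persister, the 320 µM persister and the 10 µM adapted groups (adjusted p = 6.77e-07, 5.42e-06 and 4.73e-05). XRCC1 overlaps another gene of the matrix, L34079.1, on the same strand, so reads that fit both may have been left out.

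LIG3, the ligase bound by XRCC1, was lowest in the persister cells. Its UMIs were 228 and 211 in control, 10 and 11 in 10 µM persister, 36 and 39 in 320 µM persister, 118 and 114 in 10 µM adapted and 110 and 105 in 320 µM adapted cells, which are 10.1 and 8.95, 2.58 and 2.64, 4.13 and 4.54, 7.71 and 7.35, and 6.89 and 6.10 CPM. No treated sum reached control, and the persister sums lay below the adapted ones. The changes were -1.86 (SE 0.25, adjusted p = 2.24e-07) and -1.13 (SE 0.17, adjusted p = 1.22e-06) in 10 and 320 µM persister cells and -0.34 (SE 0.13, adjusted p = 0.0197) and -0.55 (SE 0.13, adjusted p = 0.000308) in 10 and 320 µM adapted cells. The call in 10 µM adapted cells was lost without control pool 1 (-0.25, adjusted p = 0.184) or 10 µM adapted pool 2 (-0.30, adjusted p = 0.112).

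POLB, the polymerase that fills the short gap of base excision repair, rose in 320 µM adapted cells. It stood at 15.8 and 13.2 CPM in control, 7.48 and 7.69 in 10 µM persister, 14.1 and 14.1 in 320 µM persister, 16.6 and 14.2 in 10 µM adapted and 22.0 and 23.8 in 320 µM adapted cells. The 10 µM persister sums were below and the 320 µM adapted sums above both control sums, and the other treated groups overlapped control. The fall was -0.93 (SE 0.18, adjusted p = 5.72e-05) and the rise 0.66 (SE 0.10, adjusted p = 4.86e-07), which remained called in every alternative tried over all cells. Per 100 XRCC1 UMIs there were 42.8 and 34.1 POLB UMIs in control and 149 and 175 in 320 µM adapted cells. The same count for LIG3 was 27.3 and 23.1 in control, 11.2 and 12.0 in 10 µM persister, 16.8 and 16.2 in 320 µM persister, 25.9 and 26.1 in 10 µM adapted and 46.8 and 44.9 in 320 µM adapted cells. It was below control in the persister sums, within the control range in 10 µM adapted sums and above it in 320 µM adapted sums.

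APEX1, which makes the nicks that this pathway closes, fell by a similar amount in all 4 treated conditions. It gave 191 and 190 CPM in control and 149 to 171 in all 8 treated sums, so that no treated sum reached control. The changes were -0.28 (SE 0.06), -0.23 (SE 0.05), -0.24 (SE 0.05) and -0.20 (SE 0.05) in 10 and 320 µM persister and 10 and 320 µM adapted cells, with adjusted p = 6.93e-05, 0.000325, 9.14e-05 and 0.000660. It was not called in the 4 comparisons among treated conditions (0.03 to 0.05, adjusted p = 0.457 to 0.578). In cells thinned to 3000 UMIs, which leaves fewer counts, the calls of APEX1 were lost in 320 µM persister (-0.16, adjusted p = 0.0905) and 320 µM adapted cells (-0.08, adjusted p = 0.272), as were those of PARP2 in 320 µM persister (-0.34, adjusted p = 0.122) and LIG3 in 320 µM adapted cells (-0.39, adjusted p = 0.130).

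CHD1L, the remodeler that opens chromatin at ADP-ribose chains and is known to help release trapped PARP enzymes, fell in all 4 treated conditions. Its levels were 56.3 and 53.7 CPM in control, 21.4 and 22.1 in 10 µM persister, 40.1 and 38.7 in 320 µM persister, 27.6 and 25.7 in 10 µM adapted and 28.1 and 27.9 in 320 µM adapted cells. All treated sums were below control, and both 320 µM persister sums were above the other treated sums. The fall was -1.34 (SE 0.10, adjusted p = 6.40e-13) in 10 µM persister, -0.48 (SE 0.07, adjusted p = 1.29e-06) in 320 µM persister, -1.05 (SE 0.07, adjusted p = 5.58e-14) in 10 µM adapted and -0.97 (SE 0.07, adjusted p = 1.03e-13) in 320 µM adapted cells.

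Adapted cells were then set against persister cells at the same dose. At 10 µM, 5 of the 10 genes were called, all higher (60.7% of all genes were called, 51.8% of them higher, or 38.9% under library totals): HPF1 rose by 1.22 (SE 0.11, adjusted p = 4.67e-11), LIG3 by 1.52 (SE 0.27, adjusted p = 1.52e-05; 1.31 and 0.0676 in thinned cells) and POLB by 1.02 (SE 0.18, adjusted p = 1.88e-05). The other 2, XRCC1 (0.36, SE 0.11, adjusted p = 0.00751) and CHD1L (0.29, SE 0.11, adjusted p = 0.0240), were not called without 10 µM persister pool 2 (0.33 and 0.32, adjusted p = 0.0656 and 0.0902) or under library totals (0.17 and 0.10, adjusted p = 0.203 and 0.472). CHD1L was not called without 10 µM persister pool 1 or 10 µM adapted pool 1 either (0.26 and 0.23, adjusted p = 0.155 and 0.117). At 320 µM, 9 of 10 were called (66.7%; 51.2% of them higher, or 33.6% under library totals): PARP3, PARG, HPF1, LIG3 and POLB higher, and PARP1 (-0.80, SE 0.05, adjusted p = 2.96e-15), PARP2 (-0.38, SE 0.10, adjusted p = 0.00128), XRCC1 (-0.89, SE 0.10, adjusted p = 4.22e-09) and CHD1L (-0.49, SE 0.08, adjusted p = 2.45e-06; -0.35 and 0.0640 in thinned cells) lower. Among the higher ones, HPF1 (0.43) became 0.14 (adjusted p = 0.0809), PARG (0.31) 0.03 (adjusted p = 0.835) and LIG3 (0.58) 0.30 (adjusted p = 0.157) under library totals, where the median of all genes was -0.25. Leaving out 320 µM adapted pool 1 also ended the calls of PARG (0.25, adjusted p = 0.142) and LIG3 (0.48, adjusted p = 0.0561), as did leaving out 320 µM persister pool 2 for PARG (0.22, adjusted p = 0.226) and pool 1 for LIG3 (0.51, adjusted p = 0.0698).

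Between the doses, HPF1 and POLB were higher at 320 µM in both persister and adapted cells, and PARP1 was higher at 320 µM in persister and lower in adapted cells. Among persister cells 5 of 10 genes were called between 320 and 10 µM (49.7% of all genes): PARP1 (0.32), HPF1 (1.25), POLB (0.89) and CHD1L (0.86) were higher at 320 µM and PARP3 was lower (-3.24, SE 0.45, adjusted p = 5.13e-07; -1.96 and 0.196 in thinned cells). Among adapted cells 6 of 10 were called (65.8%; 50.8% of them higher, or 37.5% under library totals): PARG (0.41; 0.02 in thinned cells, adjusted p = 0.924), HPF1 (0.46) and POLB (0.57) were higher at 320 µM, and PARP1 (-0.41), PARP2 (-0.53) and XRCC1 (-1.03) lower. The difference of the dose effects, adapted minus persister, was called for 7 of 10 (49.3%), below 0 for PARP1, PARP2, HPF1, XRCC1, LIG3 and CHD1L and above 0 for PARP3. The call of LIG3 there (-0.94, SE 0.35, adjusted p = 0.0245) was lost without either 10 µM persister sum, 320 µM persister pool 2 or 320 µM adapted pool 2 (-0.96 to -0.85, adjusted p = 0.0576 to 0.0866). In thinned cells those of PARP3 (2.06, adjusted p = 0.194), CHD1L (-0.61, adjusted p = 0.124) and LIG3 (-0.55, adjusted p = 0.640) were lost.

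The deposit also lists 7762 of the 13800 cells (56.2%) in a table whose name ends in g1, with no further definition in the sources used here. Listed cells had 0.0506 MKI67 UMIs each and the 6038 others 2.39, MKI67 being a marker of proliferating cells. Listed cells made up 42.3 and 43.5% of control, 75.3 and 76.0% of 10 µM persister, 78.7 and 74.9% of 320 µM persister, 62.9 and 67.0% of 10 µM adapted and 53.9 and 55.1% of 320 µM adapted cells. Sums of listed and unlisted cells were therefore compared within each condition, on 1 common scale of 20 sums. The listed and unlisted sums of the same condition and pool formed a block.

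PARP1 and PARP2 were higher in unlisted than in listed cells in all 5 conditions. In control PARP1 gave 275 and 264 CPM in listed and 354 and 345 in unlisted cells, and PARP2 17.8 and 17.8 against 34.0 and 33.6. In 320 µM persister cells PARP2 gave 13.6 and 16.8 against 41.5 and 33.3. The differences ran from 0.37 (SE 0.04) in control to 0.86 (SE 0.09) in 10 µM persister cells for PARP1 (adjusted p = 4.36e-14 or lower in each condition) and from 0.66 (SE 0.24) in 10 µM persister to 1.30 (SE 0.15) in 320 µM persister cells for PARP2. HPF1 was higher in unlisted cells of every condition except 10 µM persister (0.14, SE 0.27, adjusted p = 0.790), and CHD1L in every condition except control (0.17, SE 0.07, adjusted p = 0.0743). APEX1 went the other way: in 320 µM adapted cells it stood at 203 and 214 CPM in listed and 140 and 143 in unlisted cells (-0.56, SE 0.05, adjusted p = 2.43e-24), and it was also lower in unlisted cells of 320 µM persister (-0.46, SE 0.07), 10 µM adapted (-0.39, SE 0.05) and control (-0.12, SE 0.04, adjusted p = 0.0192). Under library totals the median of all genes was 0.21 in the persister and 0.19 in the adapted cells of 320 µM.

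Of the 10 genes, 5 were called between unlisted and listed cells in control (30.7% of all genes), 4 in 10 µM persister (19.3%), 7 in 320 µM persister (37.0%), 6 in 10 µM adapted (32.5%) and 5 in 320 µM adapted cells (34.6%). The share of all calls that were higher in unlisted cells went from 46.2 to 66.9% in 10 µM persister, 51.7 to 76.5% in 320 µM persister, 48.5 to 60.8% in 10 µM adapted and 50.4 to 81.6% in 320 µM adapted cells under library totals, where 8 of the 10 genes were called in the last. In 10 µM persister cells, where unlisted cells numbered 74 and 63, only PARP1 was called without pool 1, and PARP2 and XRCC1 were not called without pool 2 either. The control calls of APEX1 and POLB (-0.34, SE 0.12, adjusted p = 0.0215) were lost without control pool 1 (-0.17 and -0.19). That of APEX1 was lost without control pool 2 as well (-0.07). PARG (0.44) was not called in 10 µM adapted cells without either pool (0.43 and 0.45, adjusted p = 0.171 and 0.159). In 320 µM persister cells LIG3 (-1.03) was lost without either pool (-0.79 and -1.34, adjusted p = 0.334 and 0.118) and XRCC1 (0.49) without pool 1 (0.33, adjusted p = 0.240). CHD1L lost its call in 10 µM adapted and in 320 µM adapted cells when either pool was left out (0.26 to 0.37, adjusted p = 0.0665 to 0.251).

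**Figure D4:**
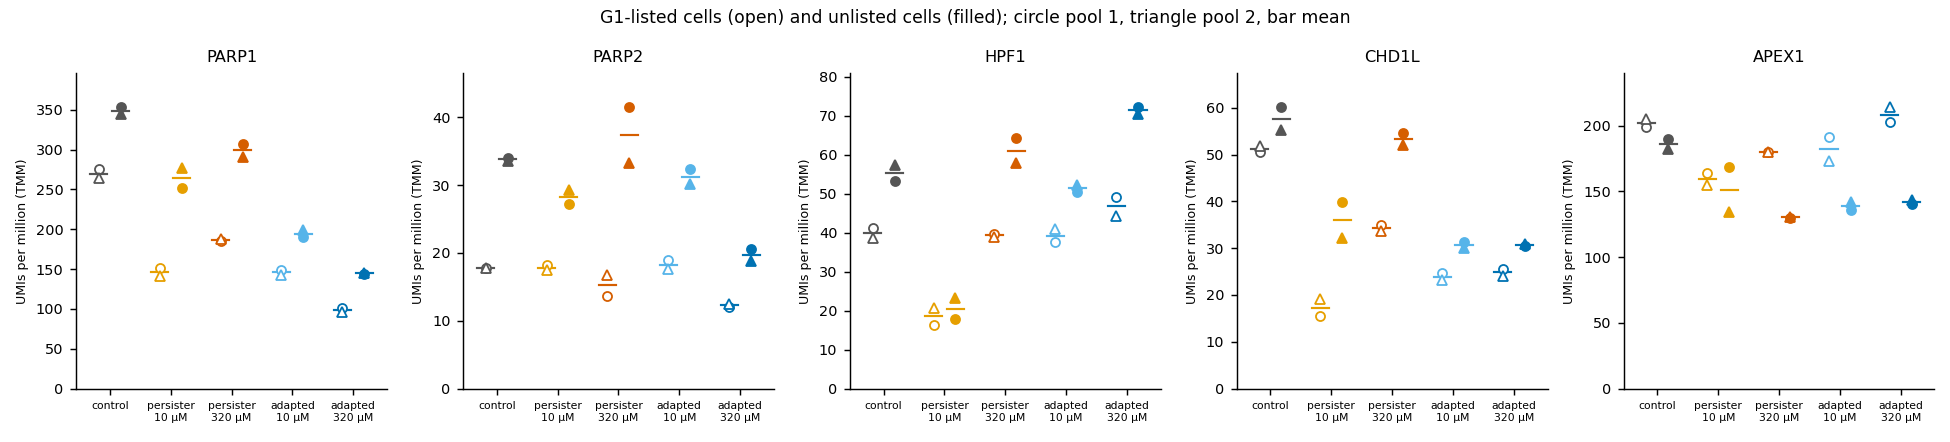
CPM, on a common TMM scale of 20 sums, of 5 genes in cells on the deposited g1 list (open) and in the other cells (filled); circles are pool 1, triangles pool 2 and bars the mean. PARP1 and PARP2 are higher in the unlisted cells of every condition, and APEX1 in 320 µM adapted cells is at 203 and 214 in listed and 140 and 143 in unlisted cells.

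Within listed cells alone, PARP2 did not differ from control by the test in 3 of the 4 treated conditions. It gave 17.8 and 17.8 CPM in control, 18.2 and 17.5 in 10 µM persister, 13.6 and 16.8 in 320 µM persister and 18.9 and 17.6 in 10 µM adapted cells, with changes of 0.01 (SE 0.16), -0.22 (SE 0.14) and 0.06 (SE 0.13) and adjusted p = 0.963, 0.215 and 0.729. In 320 µM adapted cells it gave 12.1 and 12.5 CPM and fell by 0.52 (SE 0.15, adjusted p = 0.00180). Within unlisted cells alone, PARP2 was likewise called, as lower, in 320 µM adapted cells and not in the other 3 conditions. Its mean there was 33.8 CPM in control, 28.2 in 10 µM persister, 37.4 in 320 µM persister, 31.3 in 10 µM adapted and 19.7 in 320 µM adapted cells. The part of the changed share of listed cells in the PARP2 changes over all cells was not tested. PARP1 in contrast fell in listed cells of all 4 conditions (-0.88, -0.52, -0.87 and -1.44) and in unlisted cells of all 4 (-0.33, -0.23, -0.82 and -1.27), in the order 10 and 320 µM persister, 10 and 320 µM adapted. In unlisted persister cells these falls became -0.18 (adjusted p = 0.0534) at 10 µM and -0.03 (adjusted p = 0.741) at 320 µM under library totals.

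In listed cells 9 of the 10 genes were called in 10 µM persister (52.3% of all genes), 5 in 320 µM persister (47.1%), 5 in 10 µM adapted (57.7%) and 8 in 320 µM adapted cells (66.5%). In unlisted cells the counts were 7 (34.6%), 3 (42.7%), 5 (59.8%) and 10 (72.5%). The 7 in unlisted 10 µM persister cells became 3 without 10 µM persister pool 2 and 4 without control pool 1. The 5 in listed 10 µM adapted cells became 3 without control pool 1 or 10 µM adapted pool 2. PARG and XRCC1 were the ones lost there. Among the 8 in listed 320 µM adapted cells, HPF1 (0.24) turned to -0.12 (adjusted p = 0.251) and POLB (0.43) was 0.07 (adjusted p = 0.663) under library totals. POLB was also lost there without control pool 2 (0.22, adjusted p = 0.242), and LIG3 (-0.59) without control pool 1 (-0.38, adjusted p = 0.208) or 320 µM adapted pool 2 (-0.39, adjusted p = 0.198). HPF1 was lost without either control sum or 320 µM adapted pool 1 (0.16 to 0.26, adjusted p = 0.0590 to 0.268). The share of higher calls over all genes went from 50.4 to 30.0% there, from 50.4 to 65.6% in unlisted 10 µM persister and from 48.8 to 69.8% in unlisted 320 µM persister cells. In unlisted 10 µM persister cells PARP3 had 0 and 4 UMIs and LIG3 0 and 2, so no fold is given for them. XRCC1 fell by 1.38 (SE 0.13) in listed and 1.40 (SE 0.10) in unlisted 320 µM adapted cells. The difference of these changes was -0.02 (SE 0.17, adjusted p = 0.975).

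Whether the change against control differed between unlisted and listed cells was tested directly. It was called for 2 of 10 genes in 10 µM persister (8.90% of all genes), 3 in 320 µM persister (20.8%), 1 in 10 µM adapted (5.77%) and 1 in 320 µM adapted cells (11.9%). Under library totals the last was 4, and higher calls over all genes went from 38.8 to 67.3%, 46.1 to 79.6%, 50.1 to 68.6% and 39.8 to 86.3% in these conditions. The change of PARP1 was less negative in unlisted than in listed persister cells, by 0.49 (SE 0.10, adjusted p = 5.66e-05) at 10 µM and 0.31 (SE 0.07, adjusted p = 0.000113) at 320 µM, and so was that of CHD1L, by 0.88 (SE 0.24, adjusted p = 0.00640) and 0.47 (SE 0.14, adjusted p = 0.00749). The change of APEX1 was more negative in unlisted than in listed cells of 320 µM persister (-0.34, SE 0.08; -0.14 and adjusted p = 0.235 under library totals), 10 µM adapted (-0.27, SE 0.07) and 320 µM adapted cells (-0.44, SE 0.06, adjusted p = 3.02e-09). In listed cells alone APEX1 was not called in 10 µM adapted (-0.13, adjusted p = 0.0522) or 320 µM adapted cells (0.06, adjusted p = 0.397). At 10 µM persister the PARP1 difference was not called without pool 2 (0.35, adjusted p = 0.0900) and that of CHD1L not without pool 1 (0.57, adjusted p = 0.387). That of CHD1L at 320 µM was not called without control pool 2 or either 320 µM persister sum (0.39 to 0.48, adjusted p = 0.0667 to 0.0897). That of APEX1 in 10 µM adapted cells was not called without control pool 1 or 10 µM adapted pool 1 (-0.22 and -0.17, adjusted p = 0.238 and 0.398).

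Each gene was next set beside its chromosomal neighbours, the 25 tested genes on either side, as a description. In 320 µM adapted cells the median of the neighbours lay away from 0 for most of the 10 genes. PARP1 (GRCh38 chromosome 1, 226360691 to 226408079, minus strand) was at -1.36 with a neighbour median of -0.60, and CHD1L (chromosome 1, 147242641 to 147295766, plus strand) at -0.97 with -0.84, where 19 of 50 neighbours were lower still. PARP2 (chromosome 14, 20343582 to 20357905, plus strand) was at -0.76 with a neighbour median of -0.67 over the 27 tested genes in reach.

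APEX1 (chromosome 14, 20455191 to 20457772, plus strand) shares nearly all of those neighbours with PARP2, and at -0.20 it was above 27 of its 30, whose median was -0.65. PARP3 (chromosome 3, 51942345 to 51948867, plus strand) had neighbours with a median of 1.03 and was above all 50, at 2.58. XRCC1 (chromosome 19, 43543040 to 43580473, minus strand) was at -1.42 with -0.44. HPF1 (chromosome 4, 169729465 to 169757953, minus strand) was at 0.29 with 0.21, and PARG (chromosome 10, 49818279 to 49970203, minus strand) at 0.23 with 0.19. For LIG3 (chromosome 17, 34980494 to 35009743, plus strand) the neighbours stood at 0.21 and the gene at -0.55. For POLB (chromosome 8, 42338454 to 42371808, plus strand) they stood at 0.28 and the gene at 0.66.

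In 10 µM adapted cells the medians were -0.35 around PARP1 and -0.62 around CHD1L, and between -0.24 and 0.26 around the other 8. In persister cells they lay between -0.42 (PARG, 10 µM) and 0.29 (PARP3, 10 µM), and around PARP1 and CHD1L between -0.08 and 0.11 while these genes had fallen by 0.48 to 1.34. LIG3 in 10 µM persister cells was below all 50 of its neighbours. The medians of all genes with a position were between -0.03 and 0.01. The part of copy number or of regional regulation in these shifts was not tested.

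**Figure D5:**
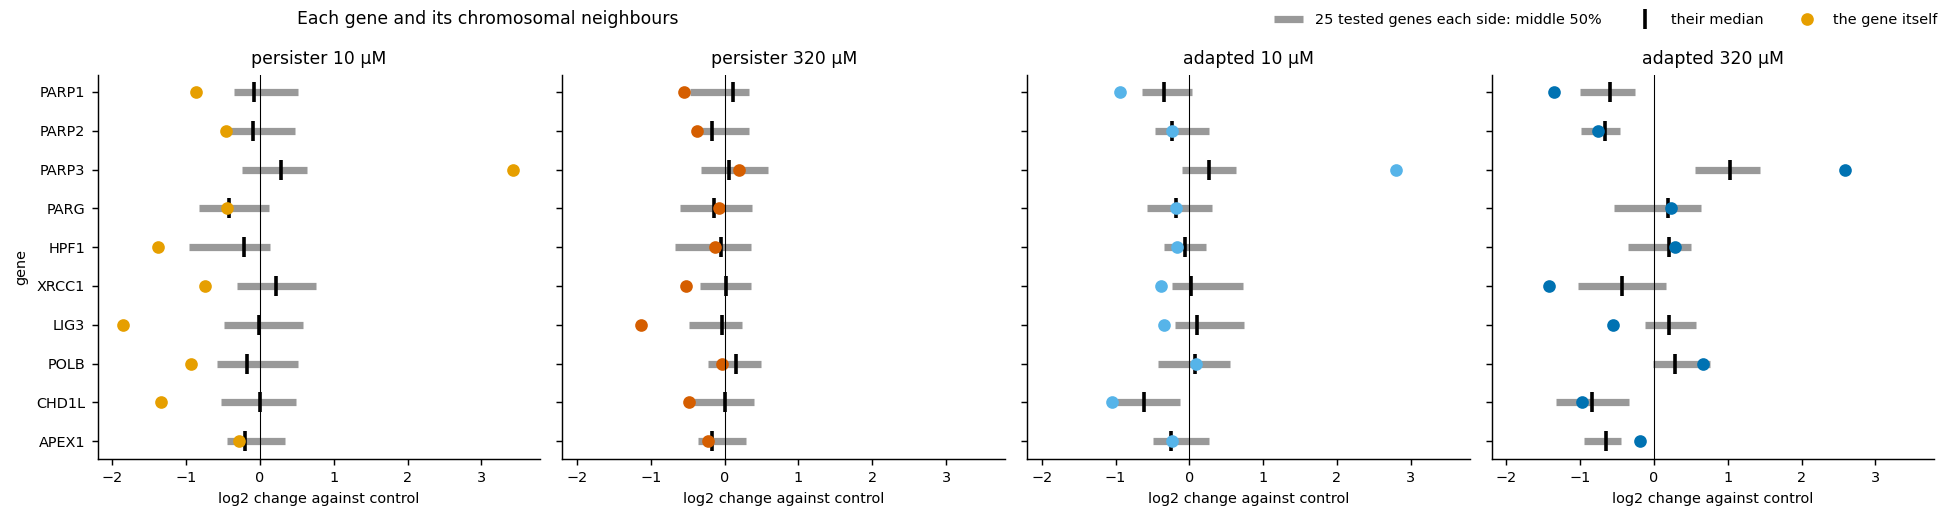
Log2 change against control of each gene (point) and of the 25 tested genes on either side of it (grey bar for the middle 50%, black tick for the median) in the 4 treated conditions. PARP2 has 27 such genes and APEX1 30, as few tested genes lie before them on their chromosome. In 320 µM adapted cells the medians around PARP1, PARP2, CHD1L and APEX1 lie between -0.84 and -0.60 and that around PARP3 at 1.03.

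Other genes of the pathway are given by lists chosen for their role. Over all genes 27.3% rose and 29.3% fell in 10 µM persister, 26.3% and 28.3% in 320 µM persister, 33.7% and 33.4% in 10 µM adapted and 37.6% and 36.9% in 320 µM adapted cells. Each list's counts stand beside these shares. Of 11 DNA glycosylases, which remove damaged bases ahead of APEX1, 3 rose and 4 fell in 10 µM persister, 4 and 5 in 320 µM persister, 5 and 3 in 10 µM adapted and 7 and 1 in 320 µM adapted cells (medians 0.32, -0.02, 0.34 and 0.44, where the medians of all genes were -0.03, -0.01, 0.00 and 0.01). MPG, which removes alkylated bases, rose from 88.4 ± 3.09 CPM (SD, n = 2) in control to 135 ± 11.5 in 10 µM persister cells. Of 13 genes of end processing, gap filling and ligation, 2 rose and 7 fell in 10 µM persister, 0 and 7 in 320 µM persister, 2 and 4 in 10 µM adapted and 7 and 4 in 320 µM adapted cells (medians -0.35, -0.26, -0.04 and 0.28). LIG1, the replicative ligase, fell by 2.65 (SE 0.10, adjusted p = 1.74e-20) in 320 µM adapted cells.

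Of 12 genes that remove or read ADP-ribose besides PARG, 3 rose and 5 fell in 10 µM persister, 2 and 2 in 320 µM persister, 2 and 7 in 10 µM adapted and 2 and 5 in 320 µM adapted cells. The medians were -0.19, 0.07, -0.41 and -0.19, and over all genes 27.3 to 37.6% rose and 28.3 to 36.9% fell. ADPRS (ADPRHL2 in the matrix), the hydrolase that takes the last ADP-ribose off serine, rose by 0.94 (SE 0.07) in 10 µM persister and fell by 0.93 (SE 0.07) in 10 µM adapted cells. Among 13 tested of 14 other PARP family genes, 8 rose and 0 fell in 10 µM persister, 3 and 6 in 320 µM persister, 2 and 7 in 10 µM adapted and 6 and 7 in 320 µM adapted cells (medians 0.90, -0.04, -0.22 and -0.60). In 10 µM persister cells, where 27.3% of all genes rose, they included PARP14 (3.09, SE 0.06) and PARP9 (4.06, SE 0.09), which belong to the interferon-induced group. This was the condition with the highest PARP3 level. PARP14 fell by 2.35 (SE 0.07) in 320 µM adapted cells. Of 11 genes that make or use NAD, 5 rose and 2 fell in 10 µM persister and likewise in 320 µM persister cells, 6 and 3 in 10 µM adapted and 5 and 4 in 320 µM adapted ones (medians 0.34, 0.35, 0.32 and 0.30). NAMPT, the enzyme that limits NAD recovery, rose by 1.75 (SE 0.07) in 10 µM persister and 1.09 (SE 0.06) in 320 µM adapted cells, and NAPRT, the entry from nicotinic acid, fell by 3.35 (SE 0.10, adjusted p = 3.68e-22) in 320 µM adapted cells.

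Of 12 proliferation genes all fell in both persister conditions, where 29.3% and 28.3% of all genes fell. In 10 and 320 µM adapted cells 10 and 8 fell and 1 rose in each, where 33.4% and 36.9% of all genes fell. MKI67 stood at 155 and 155 CPM in control, 31.7 and 38.0 in 10 µM persister, 47.3 and 47.7 in 320 µM persister, 107 and 95.1 in 10 µM adapted and 108 and 98.8 in 320 µM adapted cells. Genes whose log2 level followed PARP1 most closely over the 10 sums, among 5343 genes of at least 20 CPM, included HNRNPC (Pearson r 0.994), RGP1 (0.992), ARGLU1 (0.992) and NFIA (0.991). This is a description over 10 sums that share conditions and pools.

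Markers of other cell types differed between conditions. The summed level of 10 fibroblast markers was 59.0 and 56.03 CPM in control, 49.3 and 63.4 in 10 µM persister, 46.9 and 41.6 in 320 µM persister, 725 and 673 in 10 µM adapted and 266 and 244 in 320 µM adapted cells. In 320 µM adapted cells ACTA2 and THY1 made up most of it, with means of 127 and 124 CPM. There COL1A1 (0.883) and COL3A1 (2.09) were below their control means of 1.04 and 11.5. In 10 µM adapted cells the means were 384 for ACTA2, 131 for THY1, 92.2 for COL1A1 and 79.4 for COL3A1. Of the 10, 3 were at 0 in control, 3 to 6 in the persister sums, 1 and 0 in 10 µM adapted and 2 in 320 µM adapted cells. That of 5 mesothelial markers was 167 and 165 CPM in control, 165 and 170 in 10 µM persister, 103 and 106 in 320 µM persister, 47.3 and 45.2 in 10 µM adapted and 7.77 and 7.14 in 320 µM adapted cells. That of 8 leukocyte markers was 1.24 and 1.15 CPM in control, 22.7 and 21.4 in 10 µM persister, 4.70 and 3.38 in 320 µM persister, 7.77 and 8.77 in 10 µM adapted and 18.2 and 19.5 in 320 µM adapted cells. CD14 and CD68 made up most of it in 10 µM persister cells and CD68 in 320 µM adapted cells. In each sum 3 to 5 of the 8 were at 0. That of 4 endothelial markers was 6.73 CPM or lower in every sum. A UMI of PAX8, a transcription factor of the ovarian serous lineage, was found in 66.7 and 69.8% of control, 37.7 and 42.9% of 10 µM adapted and 34.9 and 37.5% of 320 µM adapted cells. The share was 68.0 and 70.7% in 10 µM persister and 71.8 and 71.9% in 320 µM persister cells. In 10 µM adapted cells PARP1 made up 177 and 179 CPM of the library total in cells with a PAX8 UMI and 149 and 139 in the others, all below the 310 to 337 of both classes in control. Cells with a PAX8 UMI were also deeper there, with median totals of 9821 and 11522.5 against 7088 and 7888.5 UMIs. In 320 µM adapted cells the PARP1 values were 110 and 115 CPM with a PAX8 UMI and 108 and 103 without. The part of these marker shifts in the changes of the 10 genes was not tested.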

How the data were processed

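The 10 genes and all lists were chosen with earlier results of these data known. The UMI counts deposited by the authors, whole numbers per gene and cell, come from Cell Ranger 3.1 and Seurat on hg38, per the submitters' processing notes, with parameters not given in the sources used here. Each cell's condition and pool were read from its name, as the deposited libraries are pools of all conditions, and no per-sample column was left unused (0). Deposited cells were taken as they were: no cell was removed, no doublet caller was run, and 13 barcodes occurred in both pools. Counts were summed into 10 sums (20 with the deposited g1 list). They were fitted with edgeR 4.0.16 in R 4.3.3 (filterByExpr, TMM, robust quasi-likelihood) over all conditions, with p-values adjusted by Benjamini-Hochberg over 13330 genes (12461 in listed, 12360 in unlisted and 12892 in all 20 sums, the last with each condition-by-pool pair as a block). TMM factors were 0.868 to 1.11, the common biological coefficient of variation was 4.39% and 5 residual degrees of freedom were left. The steps were tested on simulated counts.

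Alternatives were DESeq2 1.42.0, size factors, library totals, no filter, the pool as a block, cells thinned to 3000 UMIs (207 shallower cells left out) and leaving out each sum. The pool number marks a shared library, and deviations of the same pool correlated in all 10 pairs of conditions (r 0.166 to 0.329 over 8539 genes). Genes named outside the 10 were up to 4 per list and comparison with an adjusted p under 0.05, at least 20 CPM and no overlap between groups, lowest p first, and MKI67 always. For the likeness to PARP1 the genes with the highest Pearson r were taken. Some genes that these rules name are not reported here. The PAX8 split and the UMI ratios were chosen after values were seen. Positions are from GENCODE 29 on GRCh38 and promoters from RefSeq. Python 3.11.15 with numpy 2.4.6 made the sums.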

Additional observations from a re-analysis of the deposited data

Results flagged for a closer look

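The effect of dose (320 against 10 µM) differed between adapted and persister cells, by edgeR's test of the difference with Benjamini-Hochberg adjustment, for 7 of the 10 genes. Adapted minus persister, it was -0.73 for PARP1 (adjusted p = 3.57e-10), -0.61 for PARP2 (adjusted p = 0.00140), 3.03 for PARP3 (adjusted p = 1.20e-05), -0.79 for HPF1 (adjusted p = 1.06e-05), -1.25 for XRCC1 (adjusted p = 3.56e-08), -0.94 for LIG3 (adjusted p = 0.0245) and -0.78 for CHD1L (adjusted p = 1.19e-05). PARP1 was higher at 320 than at 10 µM in persister and lower in adapted cells, in both pools. HPF1 was higher at 320 µM in both states, by 1.25 and 0.46.

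The change against control differed between unlisted and listed cells, by the same kind of test, in 7 cases. In 10 µM persister cells the difference was 0.49 for PARP1 and 0.88 for CHD1L, and in 320 µM persister cells 0.31 for PARP1, 0.47 for CHD1L and -0.34 for APEX1. For APEX1 it was also -0.27 in 10 µM adapted and -0.44 in 320 µM adapted cells. Groups of 2 sums are too small for a test of single outlying sums.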

How the results depend on the processing

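Of 944 alternative values of single called genes in the 8 comparisons of conditions over all cells, 889 kept their direction and their side of the threshold, 54 kept the direction and lost the call (16 of them PARG) and 1 turned: HPF1 in 10 µM adapted cells, 0.0245 in thinned cells. The cause was not tested. In comparisons split by the list, which these values leave out, HPF1 in listed 320 µM adapted cells turned to -0.12 under library totals, and PARP3 in unlisted 10 µM persister cells, with 0 UMIs left without pool 2, turned as well. DESeq2 called 5 of the 10 genes in 10 µM adapted cells against control and 3 against 10 µM persister cells, and thinned cells gave 5 and 2, and 4 for the difference of dose effects. Library totals gave 4 in unlisted 10 µM persister cells, 8 between unlisted and listed 320 µM adapted cells, and 5 and 4 for the difference of change in 320 µM persister and adapted cells. Without the replicate block, 3 genes were called between unlisted and listed control cells, and 0 for the difference of change in 10 µM adapted cells (edgeR; 2 at an unadjusted p under 0.05). The pool as a replicate block over the 10 sums, or in listed or unlisted cells alone, moved no count of called genes by over 1.5 times. Leaving out 1 sum gave 5 to 8 called in 10 µM adapted cells against control, 3 to 6 against 10 µM persister, 3 to 6 in listed 10 µM adapted, 3 to 7 in unlisted 10 µM persister, 3 to 6 between unlisted and listed control and 1 to 4 between those of 10 µM persister cells. For the difference of change it gave 1 to 2 in 10 µM persister and 0 to 1 in 10 µM adapted cells. PARP3 and, in 10 µM persister cells, LIG3 rest on few UMIs.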
